A study of Mus musculus with 2 samples.

Results

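Lymphocyte marker genes are read in a liver RNA sample as a sign of the lymphocytes lodged among the hepatocytes. Many are transcribed mainly in B cells, T cells and natural killer (NK) cells, while others are shared with other leukocytes. The 37 genes were given as a list of symbols, by a rule that names no measured value, though earlier results of these data were known when the list was drawn up. They were 6 B cell genes, 12 T cell genes, 10 genes of NK and cytotoxic cells, and 9 genes shared by lymphocytes and other leukocytes. A probe set annotated with exactly 1 symbol was found for 36 of them, of 22180 genes read in this way on the array. The kinase gene Lck had none, so its expression was not analysed here. No member had more than 1 such probe set, so the choice among probe sets did not touch them. Probe sets that name Prf1 or Klrb1c beside another symbol were left out by the rule.

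The samples were 2 liver RNAs of male C57BL/6 mice, an inbred strain, aged 9 weeks, each on 1 Affymetrix whole-transcript array. The control had no treatment. The irradiated sample came from mice whose whole body was exposed once, under anaesthesia, to 6 Gy of gamma rays (0.81 Gy per minute) at 4 weeks of age, and its liver RNA was taken 5 weeks later. Whether an RNA came from 1 mouse or a pool, and whether the control mice were anaesthetised or sham-exposed, is not stated in the labels. The labels name no altered allele in either group. The question is how the liver transcriptome differs weeks after the exposure. Since each group had 1 array, nothing could be tested, and every difference below compares these 2 arrays only.

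Lymphocytes are among the most radiosensitive cells of the body, and whole-body irradiation empties blood, spleen and bone marrow of them before new cells are made from surviving precursors. The liver holds resident NK cells and related innate lymphocytes, many T cells and fewer B cells, which lie in the sinusoids beside the Kupffer cells, the liver's macrophages. B cells and T cells recognise antigen through receptors whose signalling chains, CD79 and CD3, mark the B and T lineages. NK cells and cytotoxic T cells kill through granules that hold perforin and granzymes.

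Values are log2 RMA values, and each difference is irradiated minus control on the log2 scale. The median of all deposited values, 6.06, served as a floor, and a gene with at least 1 value at or above it is called expressed here. This floor ranks a value among the others and does not measure background. Levels of different genes are not set against each other, since probe sets differ in how brightly they read. On this measure 22 of the 36 members were expressed and 14 were below the floor on both arrays, which is 38.9% of them, against 38.3% of all 22180 genes. On the control array 14 members were below the floor, and on the irradiated array 15, because Cd4 crossed it. The sample itself read as liver. The hepatocyte gene Alb was at 13.68 and 13.70, and 9 of 9 measured hepatocyte markers were expressed, with a median difference of 0.00.

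**Figure D1:**
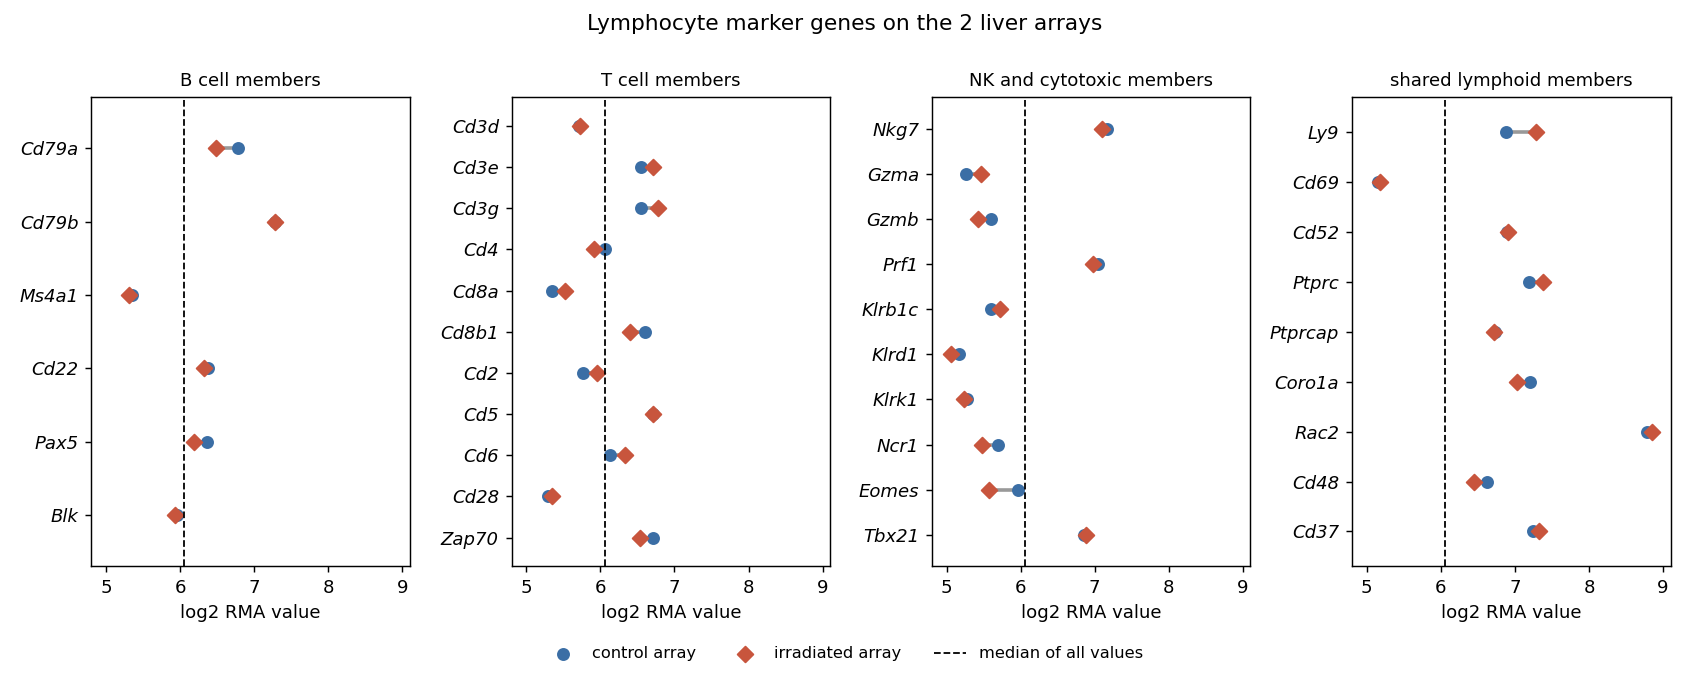
Log2 RMA value (x axis) of the 36 measured lymphocyte marker genes on the control array (circles) and the irradiated array (diamonds), 1 array each, with a dashed line at the median of all values, 6.06. The 2 symbols of a gene lie close together, the widest gaps being those of Ly9 and Eomes, and 7 of the 10 NK and cytotoxic genes lie left of the line on both arrays.

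The lymphocyte markers differed little between the irradiated and the control liver. Over the 22 expressed members the median difference was -0.01, against -0.00 over all 13689 expressed genes. It was -0.11 for the 4 B cell, -0.01 for the 7 T cell and -0.07 for the 3 NK and cytotoxic genes. For the 8 shared genes, which other leukocytes also make, it was 0.05. Of the 22, 9 were above 0, and among all expressed genes 48.5% were. Members were counted as higher or lower from a size of 0.32 log2 units, at which the larger linear value exceeds the smaller by 25%. By this size 1 of 22 members was higher (4.55%), against 4.65% of expressed genes, and 0 were lower, against 3.75%. The higher one was Ly9. At 1.5-fold, 0 were higher and 0 lower, against 1.14% and 0.65%. Both shares at 0.32 are thus near or under the background. All 22 lay within the central 95% of expressed genes, which ran from -0.37 to 0.42, and the 14 below the floor lay within that of genes below the floor, -0.47 to 0.49. In whole-liver RNA, fewer cells of a type and less RNA per cell cannot be told apart.

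Small differences went both ways. At 1.1-fold, 5 of the 22 were higher (22.7%), against 19.3% of expressed genes, and 7 were lower (31.8%), against 19.9%. The median size of the difference, whatever its sign, was 0.15 over the 22 and 0.11 over all expressed genes. Differences under 0.1 in size were seen for 10 of the 22 (45.5%), against 47.8% of all expressed genes. Under the other scalings of the arrays 1 expressed member changed sign or left 0, Cd79b, whose difference was 0.00.

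**Figure D2:**
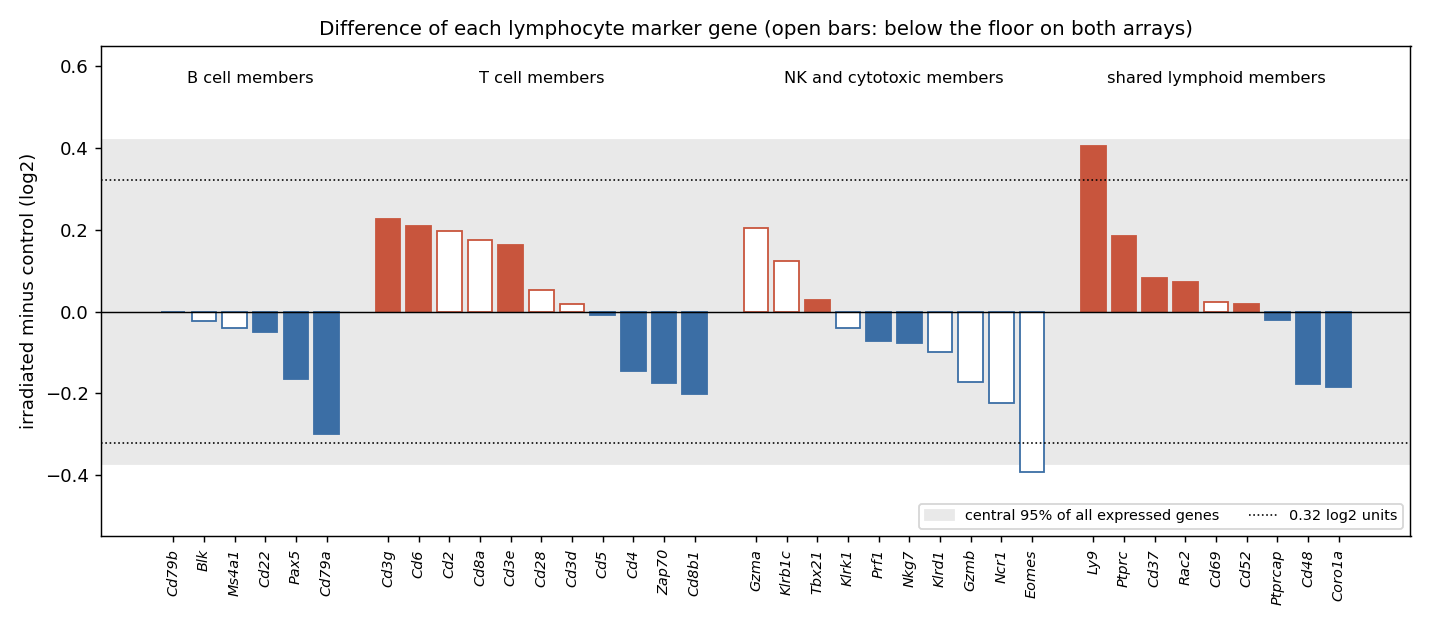
Irradiated minus control (log2, y axis) for each measured lymphocyte marker gene, in 4 groups, from the 2 arrays. Filled bars are expressed genes and open bars genes below the floor on both arrays, the grey band is the central 95% of all expressed genes (-0.37 to 0.42) and dotted lines mark 0.32 in each direction. Among filled bars, Ly9 passes the upper dotted line and none passes the lower one.

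None of the 6 B cell genes was higher on the irradiated array. Of the 4 expressed ones, 3 were lower and 1 read the same, so 0 were above 0, against 48.5% of all expressed genes. Their median was -0.11, and over all 6 the median was -0.044. Cd79a encodes the alpha signalling chain of the B cell receptor and read 6.78 in the control and 6.48 after irradiation. It was 1.23-fold lower, a difference of -0.30 and the lowest of the expressed members. Its partner chain Cd79b read 7.27 on both arrays, a difference of 0.00. The 2 values were identical to the last deposited digit, as in 156 of the 13689 expressed genes (1.14%). Why they were identical was not tested.

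Pax5, the transcription factor that holds B cell identity, read 6.36 and 6.19, a difference of -0.16. Cd22, an inhibitory co-receptor that binds sialic acid, read 6.37 and 6.32, a difference of -0.05. Ms4a1, which encodes CD20, was below the floor on both arrays, at 5.35 and 5.31. The B cell kinase gene Blk was also below it, at 5.95 and 5.93. The signs are thus mostly negative, but the 6 genes span only -0.30 to 0.00, and Ms4a1, a defining surface marker, differed by -0.04.

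T cell genes split by gene. Of the 11 measured, 7 were expressed, 3 of them above 0 (42.9%, against 48.5% of all expressed genes) and 4 below. The 7 had a median of -0.01 and a range of -0.20 to 0.23. The 3 CD3 chains, which carry the T cell receptor's signal, were all above 0. Cd3g read 6.55 in the control and 6.77 after irradiation, 1.17-fold higher (0.23). Cd3e read 6.54 and 6.70, 1.12-fold higher (0.16). Cd3d was below the floor at 5.71 and 5.73, a difference of 0.02. All 3 differences were under 0.32.

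The co-receptors that bind MHC molecules beside the T cell receptor gave both signs. Cd4, the marker of helper T cells that some dendritic cells also express, read 6.06 and 5.92, from just above the floor to below it, a difference of -0.14. Cd8b1, the beta chain of CD8 on cytotoxic T cells, read 6.61 and 6.41, a difference of -0.20. Cd8a, the alpha chain, was below the floor on both arrays, at 5.34 and 5.52, with a difference of 0.18 in the other direction. So the 2 chains of CD8 gave opposite signs.

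Among the other T cell genes, Cd6, an adhesion receptor, read 6.13 and 6.34, a difference of 0.21. Cd5, a related inhibitory receptor, read 6.71 on both arrays (-0.01). Zap70, the kinase that binds the phosphorylated CD3 chains and is also made in NK cells, read 6.71 and 6.53, a difference of -0.18. The co-stimulatory receptor gene Cd28 (5.29 and 5.35) and the adhesion gene Cd2 (5.76 and 5.96) were below the floor, with differences of 0.05 and 0.20. All 4 T cell genes below the floor were above 0, while 4 of the 7 expressed were below 0, and over all 11 the median was 0.05.

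Members that lie side by side in the genome did not share a sign throughout. In the RefSeq gene order of assembly GRCm38.p6, Cd3g, Cd3d and Cd3e are consecutive protein-coding genes on chromosome 9 with differences of 0.23, 0.02 and 0.16. Cd8b1 and Cd8a are adjacent on chromosome 6 with -0.20 and 0.18, and Cd5 and Cd6 on chromosome 19 with -0.01 and 0.21. Klrd1 and Klrk1, also adjacent on chromosome 6, shared a sign at -0.10 and -0.04. Ly9 and Cd48, both receptors of the SLAM family, lie on chromosome 1 with 1 protein-coding gene between them, at 0.40 and -0.18.

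Genes of NK and cytotoxic cells mostly lay below the floor. Of 10, 7 were below the floor on both arrays (70%, against 38.3% of all 22180 genes), with values from 5.06 to 5.97, and 3 were expressed. Nkg7, a protein of cytotoxic granules, read 7.17 and 7.10, a difference of -0.08. Prf1, the pore-forming perforin, read 7.05 and 6.98, a difference of -0.07. Tbx21, which encodes the transcription factor T-bet, read 6.86 and 6.89 (0.03). These 3 differences were within 0.1 of 0. The left-out probe set annotated with both COX2 and Prf1 read 13.04 and 13.10 (0.07). That of Klrb1a and Klrb1c read 3.50 and 3.68 (0.18). Which gene these 2 probe sets read was not tested.

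Below the floor, the granzyme genes gave opposite signs, Gzma reading 5.26 and 5.47 (0.20) and Gzmb 5.60 and 5.43 (-0.17). Ncr1, which encodes the activating receptor NKp46 and defines NK cells and related innate cells, read 5.70 and 5.47 (-0.22). Eomes, the transcription factor of mature NK cells, read 5.97 and 5.58, and its difference of -0.39 was the lowest of all 36 members, though both values lay below the floor. The lectin-like receptor genes Klrb1c, Klrd1 and Klrk1 differed by 0.12, -0.10 and -0.04. Over the 36 members with no filter, 1 was lower by at least 0.32, Eomes, and 1 higher, Ly9, against 5.49% and 6.04% of all 22180 genes.

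Most cytotoxic genes with a promoter sequence held the RUNX core there, 1 of 5 short motifs searched. The E-box and ETS cores also lay in most of them. The RUNX core was picked out after the counts were seen, and it was not tested. RefSeq windows of the 250 bases before a gene's start (assembly GRCm38.p6) were at hand for 23 of the 37 members, Lck among them. They were searched on both strands for the 5 short motifs of factors active in lymphocytes. The RUNX core TGTGGT lay in 7 of 9 NK and cytotoxic genes with a window but not in Eomes or Tbx21, in 2 of 7 T cell genes (Lck and Zap70), 0 of 3 B cell genes and 1 of 4 shared genes, against 15.9% of 27025 genes. Some genes have several windows, which overlap in Ncr1 and Ptprc but lie apart in Lck, Zap70 and Coro1a. A gene was counted once, if any of its windows held a match. In Lck and Zap70 not every window held the RUNX core. The E-box core CANNTG lay in 22 of the 23 members, against 69.3% of genes, and the ETS core GGAAG in 16 of 23, against 66.9%. Among the 9 NK and cytotoxic genes, the E-box core lay in 8 and the ETS core in 5. The EBF core CCCNNGGG lay in 4 of 23, against 13.4%, and the octamer ATGCAAAT in 0 of 23, against 1.81%. Matches of different motifs may overlap, and a match is a description of the letters and not a bound site.

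The windows of 4 granule genes are printed because they show that feature in genes above the floor (Nkg7 and Prf1) and below it (Gzma and Gzmb). Each is written 5′ to 3′ on the gene's own strand and ends at the base before its start, and capitals mark TGTGGT or its reverse complement ACCACA. The Nkg7 window is chr7:43436888-43437137 (plus strand), that of Prf1 chr10:61297586-61297835 (plus), that of Gzma chr13:113100982-113101231 (minus) and that of Gzmb chr14:56262335-56262584 (minus).
Nkg7: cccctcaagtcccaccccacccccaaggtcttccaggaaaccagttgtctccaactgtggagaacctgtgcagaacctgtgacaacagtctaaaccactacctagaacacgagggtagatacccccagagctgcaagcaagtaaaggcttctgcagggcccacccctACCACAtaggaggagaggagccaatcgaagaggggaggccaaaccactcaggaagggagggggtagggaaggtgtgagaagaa
Prf1: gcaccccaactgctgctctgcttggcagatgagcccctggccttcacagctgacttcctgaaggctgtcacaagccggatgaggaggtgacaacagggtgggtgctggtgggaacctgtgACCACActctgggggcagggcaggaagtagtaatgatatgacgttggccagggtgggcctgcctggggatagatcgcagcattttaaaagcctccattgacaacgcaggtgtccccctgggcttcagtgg
Gzma: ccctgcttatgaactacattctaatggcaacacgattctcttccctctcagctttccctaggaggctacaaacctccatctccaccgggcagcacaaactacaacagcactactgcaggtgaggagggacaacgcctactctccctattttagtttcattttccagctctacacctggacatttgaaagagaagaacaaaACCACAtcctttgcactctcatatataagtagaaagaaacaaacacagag
Gzmb: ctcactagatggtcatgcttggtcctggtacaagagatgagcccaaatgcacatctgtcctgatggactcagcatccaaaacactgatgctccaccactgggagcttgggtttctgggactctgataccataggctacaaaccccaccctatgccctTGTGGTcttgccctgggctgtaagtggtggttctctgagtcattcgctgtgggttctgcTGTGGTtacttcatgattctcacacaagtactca

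The match starts 83 bases before the start in Nkg7, 130 in Prf1 and 50 in Gzma, in each as the reverse complement, and 93 and 34 bases before it in Gzmb, as TGTGGT itself. The differences of these 4 genes were -0.08, -0.07, 0.20 and -0.17. Whether the hexamer bears on these differences was not tested.

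Genes shared by lymphocytes and other leukocytes lay on both sides of 0. Of 9, 8 were expressed, 5 of them above 0 (62.5%, against 48.5% of all expressed genes). The 8 had a median of 0.05 and a range of -0.19 to 0.40. Ly9, a homophilic receptor on B and T cells, read 6.87 in the control and 7.28 after irradiation. It was 1.32-fold higher (0.40), just inside the upper end of the central 95% of expressed genes, 0.42. Ptprc, which encodes CD45, the phosphatase found on all leukocytes, read 7.19 and 7.37, a difference of 0.19. Its associated protein gene Ptprcap read 6.73 and 6.71 (-0.02).

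Coro1a, an actin regulator of leukocytes, read 7.21 and 7.02, a difference of -0.19, and Cd48, a ligand of NK cell receptors, read 6.62 and 6.45 (-0.18). Rac2, a small GTPase of blood cells, read 8.78 and 8.86 (0.07). The surface genes Cd37 and Cd52 differed by 0.08 (7.25 and 7.33) and 0.02 (6.89 and 6.91). Cd69, an early activation marker, was below the floor at 5.15 and 5.18. Among the 9 leukocyte genes, Ly9 alone was thus past 0.32.

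Several of these shared genes are also made by macrophages, whose markers were on balance higher. All 12 Kupffer cell and macrophage markers were expressed, and 10 of 12 were above 0 (83.3%, against 48.5% of all expressed genes). Their median difference was 0.12. Their summed linear signal was 7882 in the control and 9261 after irradiation, a ratio of 1.17, in which bright probe sets weigh most. Vsig4 and C1qb gave 67.7% of the rise, and without them the ratio was 1.09. Of the 12, 3 were higher by at least 0.32 (log2), which is 25%, against 4.65% of expressed genes. None was below the floor. The Kupffer cell gene Clec4f read 9.17 and 9.27 and the macrophage gene Adgre1 8.90 and 8.85. The summed linear signal of the 8 expressed shared members was 1327 and 1387, a ratio of 1.05. The part of macrophages in the value of Ptprc or the other shared genes was not tested.

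Expressed lymphocyte genes outside the 37 had a median near 0, with more above 0 than below. Of these, Ly6d and Ccl5 alone passed 0.32. Of 68 further B cell, T cell, NK and plasma cell genes, 62 had a probe set and 31 were expressed, with a median of 0.04 and 20 above 0 (64.5%, against 48.5% of expressed genes). At 0.32 or more, 2 of the 31 were higher (6.45%, against 4.65%) and 0 lower, against 3.75%. The larger of the 2 was Ly6d, a surface gene of early B cells that epithelia also make, which read 6.68 and 8.32, 3.12-fold higher (1.64). Markers of bile duct epithelium were higher beside it, 6 of 6 expressed ones above 0 with a median of 0.72 and a summed linear signal of 574 in the control and 1198 after irradiation. Muc1 alone gave 61.0% of that rise, and without it the sums were 500.4 and 744, a ratio of 1.49. The seventh measured one was below the floor. The part of epithelium in the value of Ly6d was not tested. The other was Ccl5, a chemokine of cytotoxic cells, at 7.47 and 7.90, 1.35-fold higher (0.43).

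The 13 expressed further B cell genes had a median of 0.11, with 10 above 0 (76.9%, against 48.5% of all expressed genes) and 2 below. The median of the 4 expressed B cell members had the opposite sign, -0.11. The part of macrophages, dendritic cells or other cell types in the values of these further genes was not tested. Beside Ly6d, Fcrla, an Fc receptor-like protein of B cells, differed by -0.29 (6.14 and 5.85), and Swap70, a guanine exchange factor of activated B cells, by 0.27 (7.50 and 7.77). The 9 further T cell genes ran from -0.06 to 0.11, median 0.04, with the co-stimulator gene Icos at 0.11, the surface gene Thy1 at 0.07 and the adaptor gene Fyb at -0.06. Of 19 further NK and cytotoxic genes measured, 15 were below the floor on both arrays (78.9%, against 38.3% of all genes). Beside Ccl5, the interleukin receptor chain Il2rb differed by -0.23 (6.79 and 6.56) and the T and NK cell surface gene Cd7 by -0.22 (6.21 and 6.00). The 5 expressed plasma cell genes had a median of -0.07, with Derl3, which helps degrade misfolded secretory proteins, at 0.24, Prdm1, the factor that drives plasma cell formation, at -0.11 and Mzb1, an endoplasmic reticulum protein of B cells, at -0.10. Xbp1 and Sdc1 of that list are also made in hepatocytes.

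Antigen receptor genes, which only B and T lineage cells rearrange, were read through few probe sets with 1 symbol. Of 28 such genes, 7 were expressed and 75% were below the floor on both arrays, against 38.3% of all genes. Of the 7, 4 were above 0 (57.1%, against 48.5% of expressed genes), with a median of 0.01. None of the 7 differed by 0.32, while 4.65% of expressed genes were higher and 3.75% lower. With no filter, 1 of the 28 was higher by that size and 1 lower, against 6.04% and 5.49% of all genes. Ighm, the constant region of IgM, read 9.00 and 8.85, a difference of -0.14, and the heavy chain segment Ighv1-53 6.72 and 7.03 (0.31). In the kappa chain, Igkv15-103 differed by 0.15 and Igkv5-43 by -0.08. In the T cell receptor alpha chain, Trav12-2 differed by 0.01 and Trav9d-3 by -0.18. Some segments of a family are similar in sequence, so these probe sets may read more than the gene they are named for. A further 5 expressed probe sets carried several immunoglobulin symbols, with a median of -0.14, a range of -0.21 to 0.18 and 1 above 0. Of the Klra receptors of mouse NK cells, 6 of 7 were below the floor (85.7%, against 38.3% of all genes), and Klra2 read 6.21 and 6.29.

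**Figure D3:**
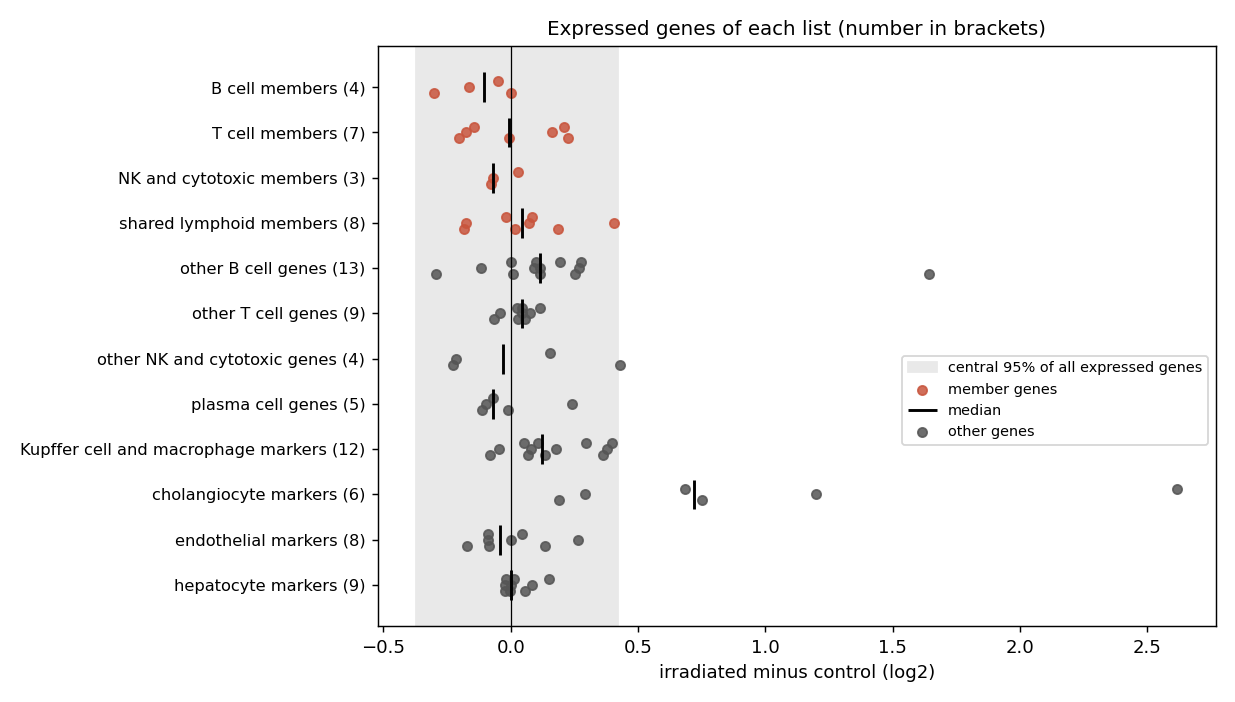
Irradiated minus control (log2, x axis) of the expressed genes of each list, 1 point per gene, from 1 array per group. Black ticks are medians and the grey band is the central 95% of all expressed genes. The 4 member groups at the top have medians of -0.11, -0.01, -0.07 and 0.05, while Kupffer cell markers have 0.12, bile duct (cholangiocyte) markers 0.72 and hepatocyte markers 0.00, and the single far point among other B cell genes is Ly6d at 1.64.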

How the data were processed

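The deposited table held 1 log2 value for each of 41345 probe sets and 2 arrays, made by the authors with RMA in Affymetrix Expression Console 1.3.1, per the submitters' processing notes. No log base is stated, and log2 was read from the range of the values. RMA normalizes arrays to each other, so a change in total RNA per cell is not visible. The medians were 6.05 and 6.07. Gene names came from GEO's platform annotation, which can be old: 23521 probe sets had 1 symbol, 1814 several and 16010 none. The single-symbol probe set with the highest mean stood for a gene. Differences, counts and medians were computed with Python 3.11.15 and pandas 2.3.3 and tested on simulated data. With 1 array per group no p-value was computed, and the number of arrays limits the precision. Every member is given with its values or difference; of each further lymphocyte list the 3 expressed genes with the largest differences are named, and of each receptor family the largest in each direction. The members, lists and motifs were chosen with earlier results of these data known. Alternatives changed the floor, the scaling, the choice among probe sets, the fold, an offset and the summary. No genome build is named for the probe sets, so none of their positions is printed.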

Additional observations from a re-analysis of the deposited data

How the results depend on the processing

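No paired analysis was possible because there was 1 array per group. The 18 reruns with another choice among probe sets could change nothing, since no member has several. Of the other 56, 44 kept counts within 1.5 times and medians within 0.05, a tolerance set here since no replicate spread exists, and 12 did not. With members below the floor included, the median of B cell members was -0.044 and of T cell members 0.053, 16 of 36 members were above 0, and 1 was lower by 0.32 or more, Eomes. With the floor at the 75th percentile of all values (7.64), 35 of 36 members were below it and Rac2 alone was left. The median over members was then 0.073, 1 was above 0 and 0 were higher by 0.32, while B, T and NK members gave no median. After quantile normalization 1 member was lower by 0.32 or more, Cd79a at -0.32. At 1.5-fold 0 members were higher, and at 1.1-fold 5 were higher and 7 lower. These changes follow from the genes or the fold admitted, except under quantile normalization, where the cause was not tested. Signal near the floor limits most members.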

Other observations

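The following values were singled out after they were seen. Ccr7, the homing receptor of naive T cells and mature dendritic cells, read 6.67 in the control and 7.14 after irradiation, 0.47 higher. The 31 further lymphocyte genes below the floor on both arrays had a median difference of 0.00. Among genes below it, the T cell receptor segment Trbv13-2 differed by -0.39 (5.61 and 5.23) and the pre-B cell gene Vpreb3 by -0.39 (5.38 and 4.99). The co-stimulatory receptor gene Cd27 differed by -0.38 and the lymphoid transcription factor gene Irf4 by -0.33. On the other side, the kappa chain segments Igkv4-70 and Igkv4-59 differed by 0.39 and 0.30 and the T cell adaptor gene Trat1 by 0.30, also below the floor. Of 8 neutrophil markers 7 were below the floor on both arrays (87.5%, against 38.3% of all genes), S100a8 at 4.24 and 4.15. Cd79b was 1 of 156 expressed genes (1.14%) whose values on the 2 arrays were identical to the last deposited digit.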
